A study of Mus musculus with 6 samples.

Results

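Integrins are the heterodimeric receptors by which cells hold the extracellular matrix and one another, and a set of 44 genes for them and for the cytoplasmic proteins that bind their tails was examined in endothelial cells of mouse skin. The set was a fixed list of names, 24 integrin subunits (16 alpha and 8 beta) and 20 cytoplasmic adaptors (talins, kindlins, vinculin, KANK proteins, the ILK, PINCH and parvin complex, focal adhesion kinase, paxillin, zyxin and p130Cas). Of the 44 names, 42 matched a probe through its RefSeq accession, out of 20014 symbols matched on the array. The 37 genes tested had a probe that the scanner software called well above background on all arrays of 1 genotype or of both, as had 13449 symbols in all. The unmatched names were Itga10 and Itgae. The probes of Itga11, Itgb6, Itgb8 and Fermt1 were well above background on 0 of 6 arrays, and that of Itgax on 1 array of each genotype, so these genes have no value below.

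Cells were wild type in 3 samples and lacked APJ, the receptor for the peptide apelin encoded by Aplnr, in the other 3, and each sample was hybridised to a one-colour Agilent expression array. Per the labels, the strain of both groups was C57Bl/6J, each sample carries the number of its own mouse, and the cells were sorted by flow cytometry with nothing done to them afterwards. No label gives an age, although an embryonic stage appears in the scanner files' names. How the knockout allele was made, which cells lost the receptor and whether animals were pooled are not given in the sources used here, so p-values measure the spread between these samples only. The comparison asked how gene expression in endothelial cells differs when APJ is absent.

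An integrin is switched to its high-affinity state from inside the cell, when the head of talin and a kindlin bind the tail of the beta subunit and the talin rod connects it to actin. Vinculin, ILK with its PINCH and parvin partners, paxillin, p130Cas and focal adhesion kinase then assemble at the adhesion and carry force and signals. KANK proteins bind the talin rod at the rim of adhesions and, through liprins and the kinesin KIF21A, tie it to a cortical complex that captures microtubules. In vessels, the laminin receptor alpha6 beta1, the fibronectin receptor alpha5 beta1 and the vitronectin receptors with alphaV anchor endothelial cells to their basement membrane and the matrix around it.

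The KANK family held the 1 member of the set that passed the test between genotypes, so the start of each KANK gene is shown for reference, from 250 bases before to 50 bases after the annotated transcription start. The windows are RefSeq promoter sequences of the mouse build GRCm38.p6, and 32 of the 44 genes had one. Kank1 lies at chr19:25236725-25237024 on the plus strand, Kank2 at chr9:21798497-21798796 on the minus strand, Kank3 at chr17:33810273-33810572 on the plus strand and Kank4 at chr4:98817488-98817787 on the minus strand. Each is written 5′ to 3′ along the gene, and capitals mark the GC box, GGGCGG or its complement CCGCCC, where neighbouring matches may overlap.
Kank1: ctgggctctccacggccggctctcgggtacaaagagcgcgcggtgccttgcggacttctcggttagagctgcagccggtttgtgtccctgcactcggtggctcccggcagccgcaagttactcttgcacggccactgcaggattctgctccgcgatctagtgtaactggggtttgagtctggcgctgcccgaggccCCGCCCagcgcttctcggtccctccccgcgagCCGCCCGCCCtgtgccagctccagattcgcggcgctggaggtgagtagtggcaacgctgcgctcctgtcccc
Kank2: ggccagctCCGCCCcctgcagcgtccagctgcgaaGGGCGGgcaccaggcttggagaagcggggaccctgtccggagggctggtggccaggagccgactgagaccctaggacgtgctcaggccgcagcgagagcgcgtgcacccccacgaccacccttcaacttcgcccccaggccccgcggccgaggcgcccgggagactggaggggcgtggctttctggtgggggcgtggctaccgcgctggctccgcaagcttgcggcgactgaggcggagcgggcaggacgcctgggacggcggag
Kank3: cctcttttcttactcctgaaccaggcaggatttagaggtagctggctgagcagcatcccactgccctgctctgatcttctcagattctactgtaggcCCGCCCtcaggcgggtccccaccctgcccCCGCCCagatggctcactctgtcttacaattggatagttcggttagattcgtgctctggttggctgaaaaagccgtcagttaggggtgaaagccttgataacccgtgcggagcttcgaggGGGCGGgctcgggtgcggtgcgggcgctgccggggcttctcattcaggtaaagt
Kank4: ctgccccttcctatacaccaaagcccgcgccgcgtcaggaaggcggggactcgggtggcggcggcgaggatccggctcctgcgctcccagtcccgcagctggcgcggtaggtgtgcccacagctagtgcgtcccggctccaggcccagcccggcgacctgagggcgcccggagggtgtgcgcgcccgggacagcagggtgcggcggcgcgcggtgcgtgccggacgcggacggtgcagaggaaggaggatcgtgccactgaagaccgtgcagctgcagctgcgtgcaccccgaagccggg
GC boxes were matched 3 times in the Kank1 window, 2 times in that of Kank2, 3 times in that of Kank3 and 0 times in that of Kank4. Of 32851 RefSeq windows of this length, 35.7% hold at least 1. The letters GGAAG or CTTCC, the core bound by ETS factors, were matched 3 times in the Kank4 window and 0 times in the other windows shown, against 71.4% of all windows with a match. The windows held 29, 31, 15 and 38 CG dinucleotides in the order Kank1 to Kank4. The array data hold no measurement at these sequences.

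Signals are given as log2 intensity relative to the 75th percentile of the same array, a scale on which levels of different probes are not comparable. The share of the 55681 probes called well above background ran from 50.3% to 58.0% over the arrays. Aplnr read 3.35, 3.77 and 3.82 in wild type replicates 1 to 3 and 1.89, 1.71 and 2.26 in the knockout replicates, which left 30.9% of the wild-type signal (-1.69 ± 0.19, SE, limma adjusted p = 0.0236). Every array thus sat on the side its label gives, but the place of the probe relative to the deletion is not known here, so the check is partial. With the replicate number as a block the limma adjusted p for Aplnr was 0.0787, and it passed 0.05 with knockout replicate 3 left out but with no other single array left out, at 0.0361 to 0.148. All 12 endothelial markers listed were tested, and their summed linear signal was 1060 to 1160 times the 75th percentile in wild type and 1080 to 1180 times in the knockout. Replicates 1 and 2 of both genotypes were on slide 1 and replicate 3 of both on slide 2. In these bulk samples fewer cells of a type and less RNA per cell cannot be told apart.

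Kank1 was the member that differed most, and the only one of the 37 tested that passed the test. Kank1 encodes a talin-binding adaptor that restrains actin polymerisation at the cell edge and anchors microtubules beside adhesions. The gene lies on chromosome 19 and was read by 1 probe (accession NM_181404). Its log2 signal was 1.18, 1.15 and 1.24 in wild type replicates 1 to 3, and -0.45, -0.87 and -0.88 in knockout replicates 1 to 3. All 3 knockout arrays lay below all 3 wild-type arrays, with knockout replicate 1 the highest of its group; of all features tested, 5.86% had groups apart in this direction. The group means were 1.19 ± 0.05 and -0.73 ± 0.24 (SD, n = 3 each). The difference was -1.92 ± 0.14 (SE, 95% confidence interval -2.24 to -1.59, limma adjusted p = 0.00808), so that Kank1 fell to 26.4% of its wild-type signal.

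Called genes were rare on these arrays: 0.553% of the 24247 genes and unnamed probes tested passed at a limma adjusted p of 0.05 in either direction, 0.367% higher and 0.186% lower in the knockout, against 1 of 37 members. By size, Kank1 ranked 9 among the 45 features that fell and 4 among the 28 of these with a symbol. Within slide 1 its difference was -1.82 and within slide 2 it was -2.12, and with slide as a block the limma adjusted p was 0.0145. With the replicate number as a block, a fit in which 0 of 37 members and 0.0206% of all features passed, the limma adjusted p of Kank1 was 0.0737. Without wild type replicate 2 the difference was -1.94 with a limma adjusted p of 0.0639. Over all alternatives the limma adjusted p ran from 0.00277 to 0.093. An exact permutation test gave p = 0.1, the smallest that 3 arrays against 3 allow.

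None of the paralogues passed the limma test. Kank2, whose product also binds talin, read 3.43, 3.46 and 3.45 in wild type and 3.42, 3.48 and 3.48 in the knockout. The groups overlapped, and the 95% interval of the difference, -0.18 to 0.20 around 0.01, does not reach the value of Kank1. Kank3, known for its expression in vascular endothelium, read 5.63, 5.84 and 5.76 in wild type and 5.67, 5.26 and 5.78 in the knockout. Only knockout replicate 2 stood below the wild-type arrays, and the difference of -0.18 ± 0.15 (SE, interval -0.54 to 0.19, limma adjusted p = 1) did not pass. A second probe of Kank3 gave -0.08 ± 0.09 (SE).

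Kank4, the remaining member of the family, read 0.10, -0.29 and -0.28 in wild type and 0.23, 0.35 and 0.15 in the knockout. Here every knockout array lay above every wild-type array, with wild type replicate 1 just below knockout replicate 3. The difference was 0.40 ± 0.13 (SE, interval 0.08 to 0.72), a ratio of 1.32, with an unadjusted p of 0.0226 and a limma adjusted p of 0.447. It is one of the 8.02% of tested features with an unadjusted limma p under 0.05 in either direction.

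**Figure D1:**
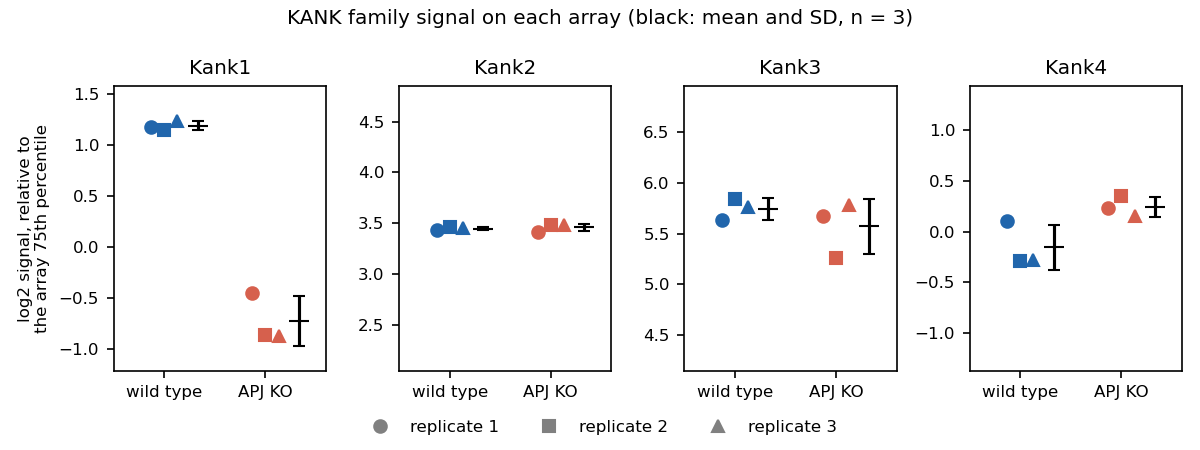
Log2 signal of the 4 KANK genes on each of the 6 arrays, relative to the array's 75th percentile, with symbols for replicates 1 to 3 and black bars for the mean and SD of 3 arrays; every vertical axis spans the same range. Kank1 lies near 1.2 in wild type and below -0.4 in the knockout, while the groups of Kank2 and Kank3 overlap and those of Kank4 sit apart by a small gap.

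Kank1 was then set beside the 7 nearest tested genes with a symbol on either side of it on chromosome 19, in the order of the reference annotation. Of these 14 genes 0 passed the limma test and 2, Tmem252 and Vldlr, had an unadjusted limma p under 0.05, as had 8.02% of all features. The differences of the 14 were below 0 in 10 genes and at or above 0 in 4. Their median was -0.08, beside -0.02 over all features tested. Dock8, on one side and a guanine nucleotide exchange factor of leukocytes, differed by -0.21 ± 0.15 (SE), and Dmrt1, on the other side, by -0.11 ± 0.18 (SE). Smarca2, a chromatin remodelling ATPase, read 0.66, 0.90 and 0.69 in wild type and 0.63, 0.55 and 0.56 in the knockout, and it differed by -0.17 ± 0.10 (SE, limma adjusted p = 0.865). The differences farthest from 0 were in the direction opposite to Kank1. Tmem252 read -3.59, -3.18 and -3.93 in wild type and -2.37, -2.05 and -2.95 in the knockout, without overlap, and differed by 1.11 ± 0.28 (SE, limma adjusted p = 0.232, and 0.0453 with slide as a block) and Vldlr, the very low density lipoprotein receptor, by 0.44 ± 0.10 (SE, limma adjusted p = 0.178).

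**Figure D2:**
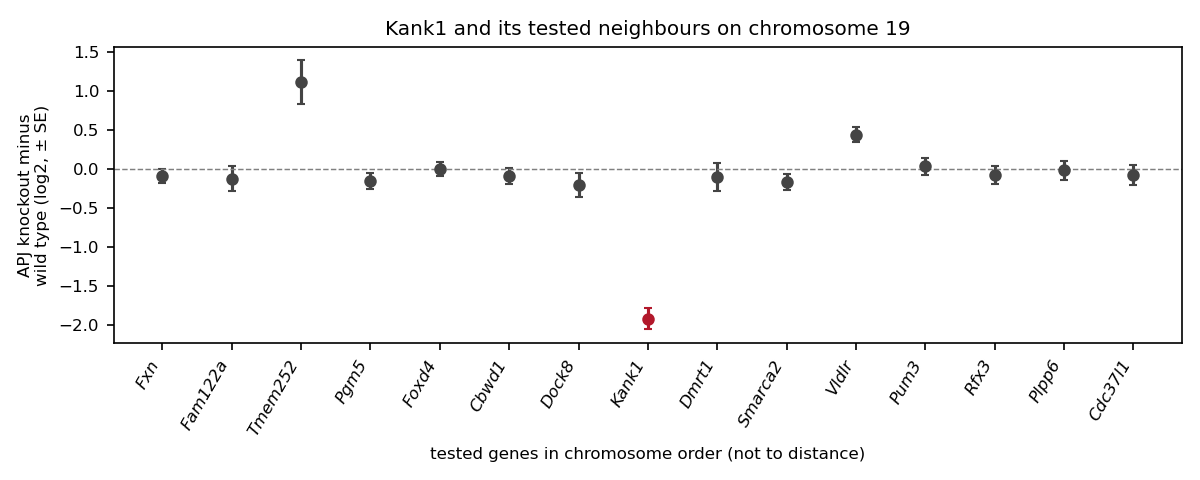
Log2 difference, APJ knockout minus wild type, with its SE from the fit, for Kank1 and the 7 tested genes on each side of it in chromosome order. Kank1, in red, passed the limma test; the other genes lie between -0.21 and 0.44 apart from Tmem252 at 1.11.

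None of the tested talins and kindlins, which activate integrins, passed the limma test. Tln1, the talin of endothelium and most tissues, read 6.36, 6.46 and 6.45 in wild type and 6.38, 6.47 and 6.47 in the knockout. The groups overlapped, and the difference was 0.02 ± 0.08 (SE, interval -0.18 to 0.22). A second Tln1 probe gave -0.10 ± 0.29 (SE), and the mean of both probes lay at -0.04, so the sign of Tln1 depends on the probe. Fermt2, the kindlin of endothelial and mesenchymal cells, read 3.03, 3.01 and 2.91 in wild type and 3.03, 3.03 and 2.92 in the knockout, a difference of 0.01 ± 0.09 (SE, interval -0.19 to 0.22). These intervals are for the brighter probe of each gene, and they do not show that there was no change. Tln2 differed by -0.01 ± 0.14 (SE) and Vcl, which encodes the actin linker vinculin, by 0.10 ± 0.26 (SE). Fermt3, the kindlin of blood cells, had a wide spread and differed by -0.22 ± 0.43 (SE, interval -1.24 to 0.80).

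In the complex of ILK, PINCH and parvin, 4 of 6 differences were above 0 and none passed the limma test. Ilk, the pseudokinase scaffold at its centre, read 4.31, 4.54 and 4.68 in wild type and 4.41, 4.32 and 4.66 in the knockout, and its difference of -0.05 ± 0.14 (SE, interval -0.38 to 0.28) lay within the spread of either group. Parva, the alpha parvin that joins ILK to actin, read 2.57, 2.64 and 2.98 in wild type and 2.86, 2.94 and 3.35 in the knockout. Its knockout array was the higher one in each same-numbered pair, but the groups overlapped, and the difference was 0.32 ± 0.17 (SE, limma adjusted p = 0.834). The other Parva probes, at 0.01 ± 0.14 and -0.06 ± 0.13 (SE), did not show it. Lims2, which encodes PINCH2, read 0.03, 0.34 and 0.23 in wild type and 0.49, 0.23 and 0.49 in the knockout (0.20 ± 0.12, SE, limma adjusted p = 0.903). Lims1, for PINCH1, differed by 0.03 and Parvb, for beta parvin, by 0.11.

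The signalling adaptors lay in the same range. Ptk2, which encodes focal adhesion kinase, differed by 0.02 ± 0.11 (SE), Pxn, for paxillin, by 0.12 ± 0.13, Bcar1, for the stretch-sensitive scaffold p130Cas, by 0.04 ± 0.08, and Zyx, for zyxin, by -0.11 ± 0.15. Across all 19 adaptors tested, 0 passed as higher and 1, Kank1, as lower, and the median difference was 0.02. Without Kank1 the other 18 ran from -0.22 to 0.40, and 12 of them lay above 0.

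**Figure D3:**
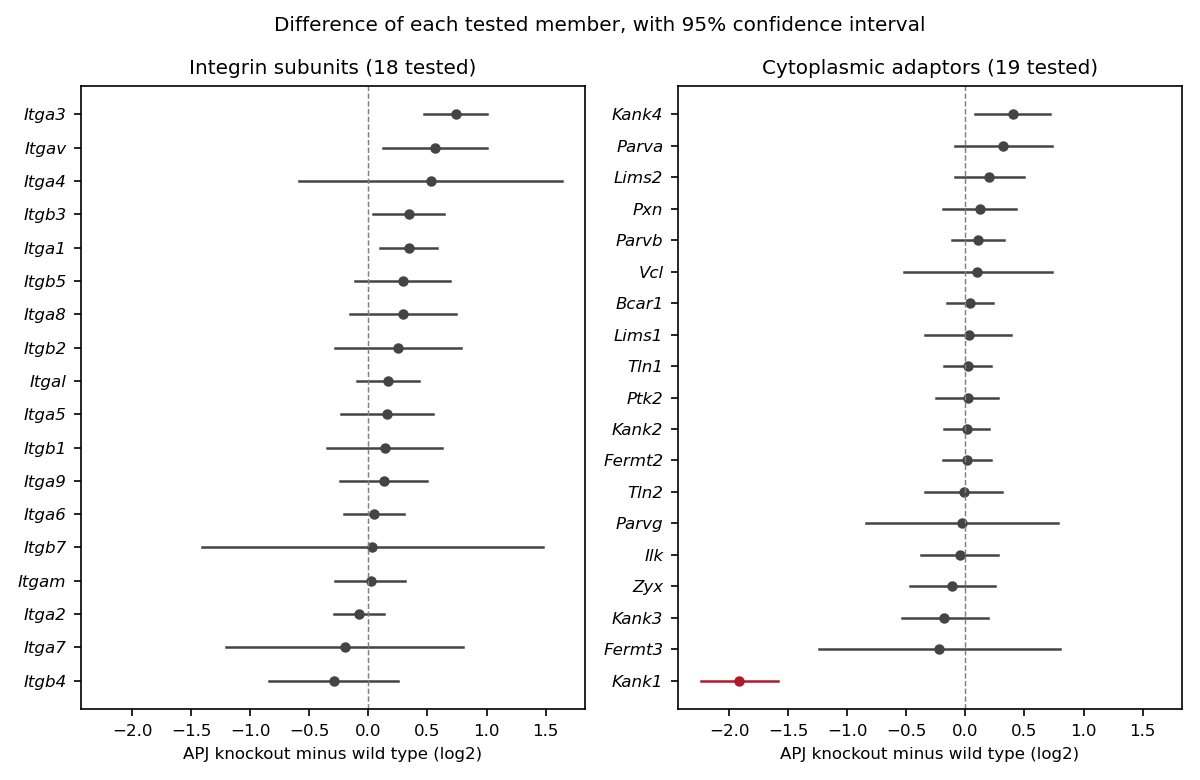
Log2 difference, APJ knockout minus wild type, of each tested member with its 95% confidence interval from the limma fit, for 18 integrin subunits and 19 cytoplasmic adaptors, ordered by size. Kank1, in red, passed the limma test, and all other adaptors lie between -0.22 and 0.40 while 15 of 18 integrin subunits lie above 0.

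None of the 18 tested integrin subunits passed the limma test, in either direction, although 15 of them (83.3%) had a higher mean in the knockout. Over all features tested, 43.6% lay above 0. The median difference of the subunits was 0.16 and their range -0.29 to 0.74, beside a median of -0.02 over all features. At an unadjusted limma p under 0.05, 4 subunits were higher in the knockout and 0 lower, where 4.45% of all features were higher. The subunits lay above 0 in 15 of 18 cases with normexp background correction, quantile normalisation, median centring and the authors' value table as well, in 14 of 18 with the mean of tested probes, in 17 of 22 with no filter on dim probes and in 13 to 15 of 18 with single arrays left out. The share of all features above 0 ran from 38.6% with no filter to 50.5% without knockout replicate 1. Within slide 1 their median was 0.23, and within slide 2, which holds 1 array of each genotype, it was 0.03. Alpha subunits, at 10 of 12 above 0 and a median of 0.16, and beta subunits, at 5 of 6 and 0.19, showed similar counts. A shared direction of genes on the same 6 arrays is not a set of separate observations, and no test was made of it.

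Itga3 had the largest difference among the subunits. It encodes the alpha3 chain, which with beta1 forms a receptor for laminins of epithelial and vascular basement membranes. Itga3, on chromosome 11, read -0.85, -0.85 and -1.13 in wild type and -0.22, -0.12 and -0.28 in the knockout. The arrays of the genotypes did not overlap, as was the case for 12.2% of all features in either direction and 6.37% in this one. The means were -0.94 ± 0.16 and -0.21 ± 0.08 (SD, n = 3 each), and the difference was 0.74 ± 0.11 (SE, interval 0.47 to 1.00), a ratio of 1.66. Its limma adjusted p was 0.0583 as fitted and 0.0236 with slide as a block. In that fit 1.18% of all features passed in either direction, and 0.763% of all features passed as higher. With the replicate number as a block the limma adjusted p of Itga3 was 0.0859. It ran from 0.12 to 0.225 with single arrays left out and reached 0.383 with no filter on dim probes. The difference was 0.68 within slide 1 and 0.85 within slide 2.

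The chains of the vitronectin receptors came next in role. Itgav, on chromosome 2, encodes the alphaV chain, which pairs with beta3 and beta5 in endothelial cells. Its brighter probe read -2.65, -3.22 and -3.16 in wild type and -2.31, -2.38 and -2.67 in the knockout. Wild type replicate 1 overlapped the knockout arrays there, and the difference was 0.56 ± 0.18 (SE, limma adjusted p = 0.428). The second Itgav probe read -3.11, -3.18 and -2.92 in wild type and -2.55, -2.43 and -2.50 in the knockout, with no overlap. That probe gave 0.58 ± 0.10 (SE), with a limma adjusted p over all probes of 0.0819, so both probes lay in the same direction by nearly the same amount. Under the mean of the probes the limma adjusted p of Itgav was 0.124, and over the alternatives its difference ran from 0.24 to 0.74.

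Itgb3, the beta chain of the alphaV beta3 receptor of growing vessels and of platelets, read 0.21, 0.16 and 0.30 in wild type and 0.61, 0.33 and 0.75 in the knockout. All knockout arrays were the higher ones, knockout replicate 2 by the least, and the difference was 0.34 ± 0.13 (SE, interval 0.04 to 0.64, limma adjusted p = 0.522). A second Itgb3 probe, well above background on 4 of 6 arrays, gave 0.03 ± 0.20 (SE). Itgb5 read -0.54, -0.37 and 0.08 in wild type and -0.01, 0.01 and 0.05 in the knockout. The spread lay in the wild-type arrays, of which replicate 3 matched the knockout, and the difference of 0.29 ± 0.16 (SE, interval -0.11 to 0.69, limma adjusted p = 0.867) did not pass.

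Itga1, whose product forms the collagen receptor alpha1 beta1, read 1.21, 1.07 and 1.00 in wild type and 1.50, 1.48 and 1.32 in the knockout. The arrays did not overlap, and the difference was 0.34 ± 0.10 (SE, interval 0.10 to 0.58, limma adjusted p = 0.346). A second Itga1 probe gave 0.20 ± 0.24 (SE). Itga2, the other collagen-binding alpha chain tested, lay on the opposite side of 0 at -0.08 ± 0.09 (SE, interval -0.29 to 0.13).

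**Figure D4:**
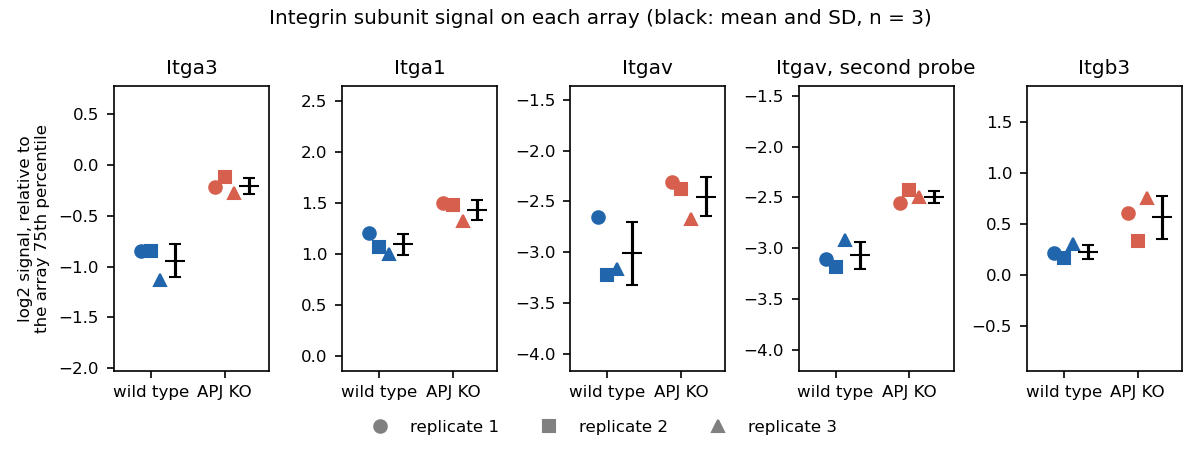
Log2 signal on each array, relative to the array's 75th percentile, of the 4 integrin subunits with the smallest unadjusted p and of the second Itgav probe, with symbols for replicates 1 to 3 and black bars for the mean and SD of 3 arrays; every vertical axis spans the same range. The knockout arrays lie above all wild-type arrays for Itga3, Itga1, Itgb3 and the second Itgav probe, and overlap by 1 wild-type array for the brighter Itgav probe.

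The chains of the main basement membrane receptors had fitted differences nearer 0. Itga6, the laminin receptor chain that is a standard surface marker of endothelium, read 7.09, 7.04 and 6.98 in wild type and 7.12, 7.21 and 6.91 in the knockout. The groups overlapped, and the difference was 0.05 ± 0.11 (SE, interval -0.21 to 0.30). Itga5, for the fibronectin receptor, read 1.58, 1.78 and 1.33 in wild type and 1.79, 1.89 and 1.48 in the knockout, with replicate 3 the lowest of both groups (0.16 ± 0.16, SE, interval -0.23 to 0.55). Itgb1, the common partner of these chains, read 3.42, 3.39 and 3.02 in wild type and 3.60, 3.62 and 3.01 in the knockout. The difference of Itgb1 was 0.14 ± 0.20 (SE, interval -0.35 to 0.62), and its second probe gave 0.00 ± 0.09 (SE).

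Of the remaining subunits, Itga8, a chain of nephronectin receptors, differed by 0.29 ± 0.19 (SE) and Itga9, a chain found in lymphatic endothelium, by 0.13 ± 0.15. Itga7, the laminin receptor chain of muscle, read between -3.30 and -1.98 on the 6 arrays and differed by -0.20 ± 0.42. Itgb4, which with alpha6 forms the hemidesmosome receptor of keratinocytes, read -2.25, -1.85 and -1.31 in wild type and -2.09, -2.10 and -2.10 in the knockout. Wild type replicate 3 stood above the other arrays, and the difference of -0.29 ± 0.23 (SE) came to -0.04 within slide 1 and -0.79 within slide 2. The 8 tested keratinocyte markers of 12 listed had their highest sum on the same array, at 34.8 times the 75th percentile against 10.8 to 16.8 on the other wild-type arrays and 10.8 to 11.7 on the knockout arrays. All 8 were lower in the knockout by mean, at a median of -1.17. Their median was -0.21 within slide 1 and -2.67 within slide 2, which holds 1 array of each genotype. Krt1, Dsp, Dsg3 and Epcam were untested, being well above background on all arrays of neither genotype. The part of such cells in the Itgb4 value was not tested.

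Markers of fibroblasts and platelets, cells that also carry integrins, were read beside these values. The 7 tested fibroblast markers of 9 listed summed to 32.6 to 41.2 times the 75th percentile in wild type and 46.9 to 50.3 times in the knockout, but Thy1 alone made up 28.5 to 35.0 and 40.7 to 46.1 of this. Without Thy1 the sums overlapped, at 4.11 to 6.19 and 3.18 to 7.61, and over the list 3 of 7 genes lay above 0, at a median difference of -0.04. Of the untested fibroblast markers, Pdgfra was well above background on 2 arrays of each genotype and Dpt on 0. All 9 platelet markers were tested and summed to 6.9 to 7.44 in wild type and 8.32 to 10.6 in the knockout. Of the 9, 8 lay above 0, at a median difference of 0.23. At an unadjusted limma p under 0.05, 3 were higher and 0 lower, beside 4.45% of all features higher. In 3 the groups were apart with the knockout higher, beside 6.37% of all features. None passed the adjusted test as fitted, and 1 passed with slide as a block, where 1.18% of all features did. Without Pf4, the brightest, the platelet sums were 3.77 to 3.96 and 4.49 to 5.31. The 6 tested mural markers of 10 listed summed to 3.31 to 4.15 and 3.54 to 4.16, and of those untested, Myh11 and Des were well above background on 0 arrays. Of the 11 tested macrophage markers, 10 lay above 0 by genotype, at a median of 0.48. At an unadjusted limma p under 0.05, 6 were higher and 0 lower, where 4.45% of all features were higher. In 5 the groups were apart with the knockout higher, as in 6.37% of all features. None of the 11 passed the adjusted test. With slide as a block Aif1 did, where 1.18% of all features passed, and under the replicate block C1qa did, where 0.0206% passed. Adgre1 differed by 2.07 ± 0.71, C1qc by 1.91 ± 0.45, Lyz2 by 1.83 ± 0.30 and C1qa by 1.79 ± 0.35 (SE). These 4 were well above background on all knockout arrays but on only 1 or 2 wild-type arrays, so they entered the test through the knockout group. They are among the 6 counted above, beside C1qb and Aif1. They are also in the 10 above 0 and in the median, and C1qc, Lyz2 and C1qa are in the 5 with groups apart. The filter favoured a higher knockout value for these 4, so the counts and the median are descriptions only. The part of these cells in the values of Itga3, Itga1, Itgav and Itgb3, and in the direction of the integrin subunits, was not tested.

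Some members known from leukocytes differed between slides, a pattern singled out after the values were seen. In the fit with genotype and slide, the slide difference passed the limma test for 8 of 37 members, 6 of them higher and 2 lower on slide 2. Over all features, 10.5% passed, 6.74% higher and 3.79% lower on slide 2. Itgb7, the beta chain of the gut homing receptor alpha4 beta7 of lymphocytes, read 0.02 and -0.09 on the wild-type arrays of slide 1 and 1.63 on that of slide 2. In the knockout it read -0.03 and 0.09 on slide 1 and 1.60 on slide 2. The slide difference was 1.62 (limma adjusted p = 0.00406), while the genotype difference was 0.03 ± 0.60 (SE).

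Itga4, the alpha chain of the same receptor and of the VCAM1 receptor, read 0.60 and 0.10 on slide 1 and 1.71 on slide 2 in wild type, and 1.16, 0.84 and 1.99 in the knockout. Both probes of Itga4 lay higher on slide 2, by 1.17 (limma adjusted p = 0.0257) and 0.91. Fermt3 read -1.23, -1.26 and -0.07 in wild type and -1.37, -1.50 and -0.35 in the knockout, a slide difference of 1.13 (limma adjusted p = 0.00433). Parvg, the parvin of blood cells, read -1.44, -1.54 and -0.72 in wild type and -1.62, -1.56 and -0.61 in the knockout, a slide difference of 0.88 (limma adjusted p = 0.00754). For these members the array of slide 2 was the highest of its genotype in both groups. Their genotype differences were 0.53 ± 0.47 for Itga4, -0.22 ± 0.43 for Fermt3 and -0.03 ± 0.34 for Parvg (SE), none past the test.

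For other leukocyte chains the slide difference did not pass the limma test. Itgb2, the beta2 chain, had a slide difference of 0.44 (limma adjusted p = 0.126) and Itgal, the alphaL chain, one of 0.11 (limma adjusted p = 0.508). The probes of Itgam, the alphaM chain, disagreed on the genotype difference, at 0.02 ± 0.12, -0.07 ± 0.16 and -0.35 ± 0.10 (SE). The last of these had groups apart with the knockout lower, as had 5.86% of all features. Its unadjusted limma p was 0.00954 and its limma adjusted p over all probes 0.288. The brightest probe, at 0.02, represents Itgam, which is thereby counted among the 15 subunits above 0. The remaining members with a slide difference past the limma test were Parva at 0.41 (adjusted p = 0.0293), Lims1 at 0.35 (0.0384), Itgb1 at -0.49 (0.0268) and Vcl at -0.62 (0.0397). Other probes of Parva, Lims1 and Vcl had the opposite sign between slides, and that of Itgb1 gave -0.09.

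Some cell type markers also differed between slides, where 10.5% of all features passed, 6.74% higher and 3.79% lower on slide 2. The slide difference passed the limma test for 4 of 11 tested macrophage markers, all higher on slide 2, among them Cx3cr1 at 2.01 (adjusted p = 0.00406) and Tyrobp at 1.68 (adjusted p = 0.00406). It passed for 4 of 8 tested lymphocyte and neutrophil markers, again all higher on slide 2. The pattern was not confined to leukocyte markers. Of 12 endothelial markers 3 passed, all lower on slide 2, at -0.83 to -0.37. So did 1 of 9 platelet markers, lower on slide 2, and 1 of 4 tested Schwann cell and melanocyte markers, higher on slide 2. The sum of the 11 macrophage markers, of 12 listed (Cd68 had no matched probe), was 14.9, 15.4 and 29.9 in wild type and 18.9, 17.3 and 28.6 in the knockout. Without Csf1r, the brightest, the macrophage sums reached at most 20.2 in wild type and 22.5 in the knockout. Differences of the macrophage markers by genotype are given above. The lymphocyte and neutrophil markers summed to 9.75 to 12.6 in wild type and 8.92 to 10.5 in the knockout. Without the brightest of them the sums were 4.46 to 6.19 and 5.18 to 8.63, the other way round. By genotype 4 of the 8 lay above 0, at a median of 0.17, and none passed the adjusted test. At an unadjusted limma p under 0.05, 2 were higher and 0 lower, where 4.45% of all features were higher. The groups were apart in 1, with the knockout lower, beside 5.86% of all features. Of those untested, Ltf was well above background on 0 arrays. The part of blood cells in the values of Itgb7, Itga4, Fermt3 and Parvg was not tested.

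**Figure D5:**
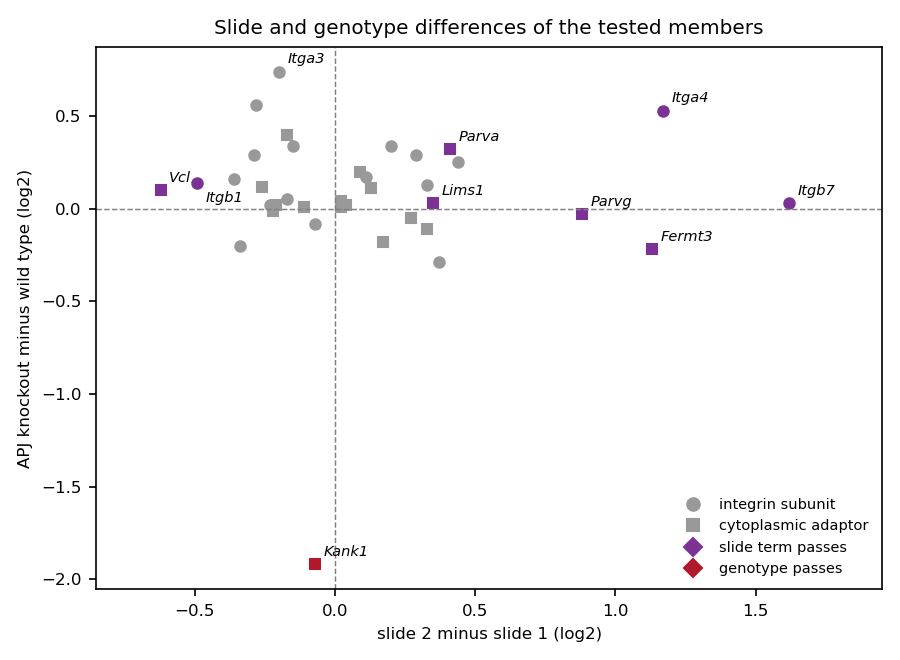
Genotype difference (vertical) against slide difference (horizontal), both in log2 units, of the 37 tested members, with circles for integrin subunits and squares for adaptors; purple marks a slide difference and red a genotype difference past the limma test. Kank1 lies at -1.92 on the genotype axis near 0 on the slide axis, and Itgb7, Itga4, Fermt3 and Parvg lie right of 0.8 on the slide axis.

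Among 96 listed genes that act with integrins, 89 were tested, 45 lay above 0, the median difference was 0.00, and 0 passed as higher and 1 as lower. That gene was Madcam1, the vascular ligand on which alpha4 beta7 docks. Madcam1, on chromosome 10, read 5.48, 5.67 and 5.55 in wild type and 3.63, 3.91 and 3.94 in the knockout, groups far apart beside their own spread. It fell by 1.74 ± 0.12 on the log2 scale (SE, limma adjusted p = 0.00808), with limma adjusted p of 0.0645 under the replicate block and 0.0574 without wild type replicate 2, in a range of 0.00277 to 0.0916 over the alternatives. The genes of its receptor, Itga4 and Itgb7, are described above and did not pass between genotypes. The other 8 tested ligands on cells ran up to 0.24 (Icam1). Jam2, a junctional ligand, at -0.38 ± 0.11 (SE, limma adjusted p = 0.368) and Vcam1, another ligand of alpha4, at -0.69 ± 0.32 (SE, limma adjusted p = 0.71) did not pass.

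Of 24 tested matrix ligands 13 lay above 0 and none passed the limma test. At an unadjusted limma p under 0.05, 5 were higher and 2 lower. Over all features, 8.02% were under it in either direction and 4.45% were higher. Fn1, for fibronectin, the ligand of alpha5 beta1 and alphaV receptors, read 6.23, 6.16 and 5.99 in wild type and 6.88, 6.90 and 6.67 in the knockout, without overlap. Its difference was 0.69 ± 0.11 (SE, limma adjusted p = 0.0683, range 0.0179 to 0.418 over the alternatives, and 0.0195 with slide as a block). Thbs1, for thrombospondin 1, read -0.36, -0.44 and -0.66 in wild type and 0.19, 0.38 and -0.05 in the knockout (0.66 ± 0.14, SE, limma adjusted p = 0.155, range 0.0351 to 0.623, the lowest with slide as a block). Npnt, for nephronectin, the ligand of alpha8 beta1, read -1.12, -0.82 and -0.93 in wild type and -1.71, -1.70 and -1.46 in the knockout, also without overlap. It differed in the opposite direction, by -0.66 ± 0.12 (SE, limma adjusted p = 0.101).

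Of 10 tested partners of KANK proteins in the cortical complex, 5 lay above 0, the median was -0.01 and none passed the limma test. At an unadjusted limma p under 0.05, 1 was higher and 1 lower, beside 8.02% of all features in either direction. Kif21b read 2.04, 1.94 and 2.20 in wild type and 2.46, 2.71 and 2.67 in the knockout, without overlap (0.55 ± 0.11, SE, limma adjusted p = 0.133). Kif21a, for the kinesin that KANK1 recruits, read -1.15, -1.57 and -1.68 in wild type and -1.60, -2.27 and -2.38 in the knockout, where knockout replicate 1 overlapped the wild-type arrays (-0.61 ± 0.24, SE, limma adjusted p = 0.58). Ppfibp1, for liprin beta 1, which binds KANK1, differed by 0.18 ± 0.13 (SE), and Ppfia1, for liprin alpha 1, by 0.00 ± 0.11 (SE).

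Among 17 tested regulators of integrin activity and trafficking, 11 lay above 0, the median was 0.02 and none passed. Dab2, a clathrin adaptor that takes up integrins, had the smallest p, at 0.53 ± 0.14 (SE, limma adjusted p = 0.285), and the GTPase Rap1b and its endothelial effector Rasip1 differed by 0.07 and 0.03. Cd9, a tetraspanin partner of integrins, differed by -0.25 ± 0.09 (SE, limma adjusted p = 0.467) and Flna, the filamin that competes with talin for the beta tail, by -0.16. Of 29 tested focal adhesion genes 13 lay above 0 and none passed, at a median of -0.02. Trip6, a zyxin relative, had the smallest p there, at -0.31 ± 0.11 (SE, limma adjusted p = 0.464), followed by Nexn at -0.20 and the kinase Fyn at 0.21.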

How the data were processed

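RNA of 3 wild-type and 3 APJ knockout samples was labelled with Cy3, per the labels' protocols, and read on one-colour Agilent arrays. The deposited scanner files hold a linear intensity per spot, which Agilent Feature Extraction 10.7.3.1 had background-subtracted and detrended, per the file headers; it is not normalised between arrays. In the value table that the authors deposited, each array's intensity is multiplied by 1 constant.

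Intensities of non-control, non-outlier spots (126 to 179 outliers of 59305 per array, 0 saturated) were taken to log2, less the array's 75th percentile, and averaged per probe. A gene was represented by its tested probe of highest mean. Symbols came from RefSeq accessions, which 47.4% of probes matched. Their number limits the precision: 6 arrays. Genotype was fitted with limma 3.58.1 in R 4.3.3 (lmFit, eBayes), two-sided, Benjamini-Hochberg adjusted over 24247 features with a threshold of 0.05, and the scripts were tested on simulated data. The slide fit added slide as a fixed term. Confidence intervals are at 95% and cover single genes, unadjusted. Normexp (offset 50) used the median foreground signal, because the planned mean signal is not in the columns used.

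The members and lists were chosen with earlier results of these data known. Named in full were members past the threshold, the 4 of each class with the smallest p, main endothelial subunits and adaptors, and, per partner list, those past the threshold and up to 3 with the smallest p. Others were named after their values were seen. Same-numbered arrays deviated together (correlations 0.233, 0.152 and 0.649). Within slide 1, however, wild type replicate 1 deviated more with knockout replicate 2 (0.358), and wild type replicate 2 more with knockout replicate 1 (0.279). Pairing by number thus cannot be told apart from sharing a slide. The main fit had genotype as its only term, and the replicate number was a block in an alternative fit only. The array design is on another mouse build than the RefSeq windows, so no probe coordinate is given. Neighbours were taken 7 to a side in place of the planned 8, because 1 gene beyond them is not reported here, and 1 marker gene is likewise not named.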

Additional observations from a re-analysis of the deposited data

How the results depend on the processing

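Over all features, 89 were higher and 45 lower; without a filter on dim probes these became 3 and 0 (1049 lower at an unadjusted limma p under 0.05), with slide as a block 185 and 101, under the replicate block 4 and 1, within slide 1 alone (added after seeing the data) 9 and 2, and with single arrays left out 11 to 45 and 1 to 27. Integrin subunits called went from 0 (4 at an unadjusted limma p under 0.05) to 1 with slide as a block. Adaptors called went from 1 to 0 without the filter, under the replicate block and within slide 1 (2, 4 and 2 at an unadjusted limma p under 0.05), and 0 to 1 with single arrays left out. Partner genes called went from 1 to 2 with normexp, 3 with slide as a block, 0 without the filter, under the replicate block and within slide 1 (10, 20 and 9 at an unadjusted limma p under 0.05), and 0 to 1 with arrays left out. Neighbours of Kank1 called went from 0 (2 at an unadjusted limma p under 0.05) to 1 with slide as a block. More features were tested without the filter, and fewer samples were used within slide 1 or with an array left out. The cause of these and of the other changes was not tested.

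Kank1 kept its direction under all alternatives run: -1.92 without the filter (limma adjusted p = 0.093), -1.92 under the replicate block (0.0737), -1.82 within slide 1 (0.0842) and -2.06 to -1.85 with arrays left out. So did Aplnr, at -1.69 without the filter (limma adjusted p = 0.186), -1.69 under the replicate block (0.0787), -1.76 within slide 1 (0.0859) and -1.84 to -1.57 with arrays left out. The median of the integrin subunits went from 0.16 to 0.23 within slide 1 and 0.16 to 0.25 with arrays left out. Signs reversed for differences near 0: Tln1 at -0.04 as the mean of its probes, and, with arrays left out, Tln1 (-0.02 to 0.05), Itga6 (-0.02 to 0.13), Fermt2 (-0.02 to 0.05) and Ilk (-0.15 to 0.03). Kank1 kept its call in 12 of 16 alternatives and Aplnr in 8 of 16. Of 480 comparisons of 30 other genes with an alternative, 464 kept direction and side of the threshold; only Madcam1 of these passes as fitted, and it lost its call in 4 of its 16, so the tally is mostly of genes that did not pass either way. Among Kank1, Aplnr and these 30 genes, the block on replicate number changed the calls of Kank1, Aplnr and Madcam1 only. The macrophage marker C1qa, outside this tally, passed under that block but not as fitted. Dim probes limit what can be seen of Itga11, Itgax, Itgb6, Itgb8 and Fermt1.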
